A study of Homo sapiens with 3 samples.

Results

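Cadherins and protocadherins were the 87 genes of a 58735-row expression table whose symbol was CDH followed by digits or began with PCDH. Of 106 symbols that matched, 6 with a hyphen, 11 pseudogenes and the genes CDH1 and CDH2 were left out. The 87 genes comprised 21 CDH genes, 53 clustered protocadherins and 13 other protocadherins. The clustered genes were 15 of the PCDHA, 16 of the PCDHB and 22 of the PCDHG cluster. The choice used names only and no measured value.

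RNA was sequenced from H660 cells, a human neuroendocrine prostate cancer line that the labels call parental and prostatic adenocarcinoma. The cells received the vehicle DMSO, 2.5 µM JG231 or 5 µM JG231 for 24 h, and JG231 is an allosteric inhibitor of the chaperone HSP70. Each condition was 1 library, so no difference below has a replicate check and no p-value was computed. All 3 libraries came from the same parental line, and the comparison addressed which genes differed in level after HSP70 inhibition. All levels are FPKM, which count the fragments of a gene relative to its length and to the depth of the library. In a bulk sample, fewer cells that express a gene and less RNA per cell cannot be told apart.

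The label of the line was checked against marker genes. All 8 neuroendocrine markers were above 0 in every library, with summed levels of 513 FPKM in DMSO, 221 at 2.5 µM and 192 at 5 µM. The 6 luminal prostate markers summed to between 0.116 and 0.537 FPKM, and the 6 fibroblast markers to between 0.84 and 1.54 FPKM. The steps between low FPKM values, each worth 1 fragment, gave depths of about 16088000 fragments in DMSO, 20373000 at 2.5 µM and 24061000 at 5 µM. The deepest library listed the fewest genes above 0, with 17293 against 21862 in DMSO. Genes with fewer than 10 fragments made up 17.7% of the listed genes in DMSO, 13.3% at 2.5 µM and 4.21% at 5 µM. A value of 0 at 5 µM therefore did not have the same meaning as a 0 in DMSO, and it is given here as listed at 0.

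Cadherins are membrane proteins whose extracellular repeats bind calcium and hold neighbouring cells together. Classical cadherins, of types I and II, bind catenins through their cytoplasmic tail and so reach the actin cytoskeleton. Clustered protocadherins act in self-recognition of neurons: every variable first exon of the PCDHA and PCDHG clusters has a promoter of its own and is spliced to constant exons that the whole cluster shares, whereas each PCDHB gene is a single exon. CTCF and cohesin bind at many of these promoters and at enhancers and take part in the choice between them.

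The 3 clusters lay side by side on the forward strand of chromosome 5 (GRCh38), with PCDHA at chr5:140786136-141012347, PCDHB at chr5:141051374-141249365 and PCDHG at chr5:141330514-141512977. Promoter sequences of RefSeq (GRCh38.p14), each from 250 bases before to 50 bases after a gene start, were matched to 69 of the 87 genes. They are shown because a short element recurred at a similar place in each cluster, from 7 of 20 PCDHG genes to 13 of 14 PCDHB genes. The letters searched, on both strands, were chosen after reading these promoters, so their frequency in the clusters is a description. GGTGGCGCT was in a promoter of 13 of 14 PCDHB genes, of 0 of 13 PCDHA and 0 of 20 PCDHG genes, and in 0.501% of all 35116 promoters. GATGTCGCT was in a promoter of 9 of 13 PCDHA genes and in 0.105% of all promoters. GCCGCTGTT was in a promoter of 7 of 20 PCDHG genes and in 0.322% of all promoters. Several PCDHG genes had multiple promoters, so counts of genes and shares of promoters differ in unit. These 3 elements contain CGCT, which 70.0% of all promoters hold. They began at a median of 66 bases before the gene start in PCDHB, 53 in PCDHA and 67 in PCDHG. The E-box CACGTG is a sequence that MYC-family factors bind. It was in a promoter of 3 of 13 PCDHA genes, 0 of 14 PCDHB genes and 0 of 20 PCDHG genes, and in 7.26% of all promoters. A match to these letters is not evidence of a binding site.

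The genes chosen for printing are among those described below that had a match, after their values were seen. Capitals mark the element and all sequences run 5′ to 3′ on the forward strand. They were ended at the gene start of RefSeq, which the element of PCDHB8 crosses and which for PCDHA10 lies behind the start given by GENCODE. The PCDHB sequences lie at chr5:141094529-141094588 (PCDHB2), chr5:141135164-141135205 (PCDHB5), chr5:141177762-141177796 (PCDHB8), chr5:141182295-141182354 (PCDHB16), chr5:141187059-141187118 (PCDHB9) and chr5:141192284-141192343 (PCDHB10). The PCDHA sequences lie at chr5:140806964-140807023 (PCDHA4), chr5:140834157-140834216 (PCDHA7) and chr5:140855826-140855885 (PCDHA10). The PCDHG sequence lies at chr5:141382637-141382696 (PCDHGA7).
PCDHB2: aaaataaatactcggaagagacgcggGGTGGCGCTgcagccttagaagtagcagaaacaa
PCDHB5: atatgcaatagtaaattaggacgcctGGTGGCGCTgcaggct
PCDHB8: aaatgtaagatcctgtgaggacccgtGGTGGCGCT
PCDHB16: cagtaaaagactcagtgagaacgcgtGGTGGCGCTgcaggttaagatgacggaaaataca
PCDHB9: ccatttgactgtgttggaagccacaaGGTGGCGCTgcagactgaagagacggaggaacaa
PCDHB10: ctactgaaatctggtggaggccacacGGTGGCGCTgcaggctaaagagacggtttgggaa
PCDHA4: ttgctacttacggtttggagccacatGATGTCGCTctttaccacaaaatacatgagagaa
PCDHA7: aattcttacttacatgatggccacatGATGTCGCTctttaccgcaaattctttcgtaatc
PCDHA10: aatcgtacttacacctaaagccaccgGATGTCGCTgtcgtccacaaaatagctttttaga
PCDHGA7: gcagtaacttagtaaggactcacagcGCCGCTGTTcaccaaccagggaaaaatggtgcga

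Most cadherins and protocadherins were low in H660 cells, and most of those detected were lower after JG231. Of the 87 genes, 17 were listed at 0 in all 3 libraries (11 CDH genes, 3 clustered and 3 other protocadherins), and 35 were above 0 in all 3. In DMSO 66 genes were above 0, against 55 at 2.5 µM and 37 at 5 µM. Over the whole table the number also fell, with 21862, 19352 and 17293 genes above 0 in the same order. The summed level of the 87 genes was 129.7 FPKM in DMSO, 68.1 at 2.5 µM and 52.6 at 5 µM. As fragments scaled to library depth, their sum was 0.544 of the DMSO value at 2.5 µM (95% interval 0.529 to 0.561) and 0.430 at 5 µM (0.417 to 0.443). These intervals, exact for the ratio of 2 counts, cover counting error only, since copies made in library amplification could not be told apart from separate molecules.

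The methods of the study filter on expression above 1 and on a log2 ratio of JG231 to DMSO, with 0.1 FPKM added to each, beyond 0.25. They also kept genes that went from 0 to a value or from a value to 0, a rule not applied here. Here a gene passed when it was above 1 FPKM in either library compared, and it was counted as lower or higher when its log2 ratio was beyond 0.25. Of the 87 genes, 23 passed that filter at each dose, and 13 of these were above 1 FPKM in DMSO only, so that a lower value after JG231 was built into their selection. At 2.5 µM, 21 genes were lower and 2 higher, where 43.4% of all 15746 genes that passed were lower and 36.4% higher. At 5 µM, 21 genes were lower and 1 higher, where 45.1% of 15765 genes were lower and 36.5% higher. With a log2 ratio beyond 1, 13 genes were lower and 1 higher at 2.5 µM (21.7% and 12.9% of all genes), and 16 were lower and 0 higher at 5 µM (24.3% and 14.7%). No replicate exists from which the error of these counts could be had.

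A filter on the mean of the 3 libraries favours DMSO less but does not remove this. With a mean of at least 1 FPKM, 13 genes remained, of which CDH5, PCDHB11 and PCDH7 were above 1 FPKM in DMSO only and passed through that library, as did 4.38% of all genes with such a mean. Of the 13 genes, 11 were lower by more than 0.25 at both doses, where 38.3% of all 13785 such genes were lower at 2.5 µM and 40.2% at 5 µM. The 2 others were PCDH8 and PCDHA4, which were higher at both doses (38.4% of genes were higher at 2.5 µM and 38.6% at 5 µM), PCDHA4 at 5 µM by less than 0.25, and lower there when mitochondrial and small RNA genes were left out of the scaling. Among the 70 genes above 0 in any library, 58 were lower than in DMSO by any amount at 2.5 µM and 12 higher, where 56.9% of all 24136 such genes were lower and 40.7% higher. At 5 µM 59 were lower, 7 higher and 4 equal, where 57.8% of all such genes were lower and 36.9% higher. The median log2 ratio of the 13 genes was -0.80 at 2.5 µM and -1.38 at 5 µM, and that of all genes with the same filter was 0.00 and -0.01.

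**Figure D1:**
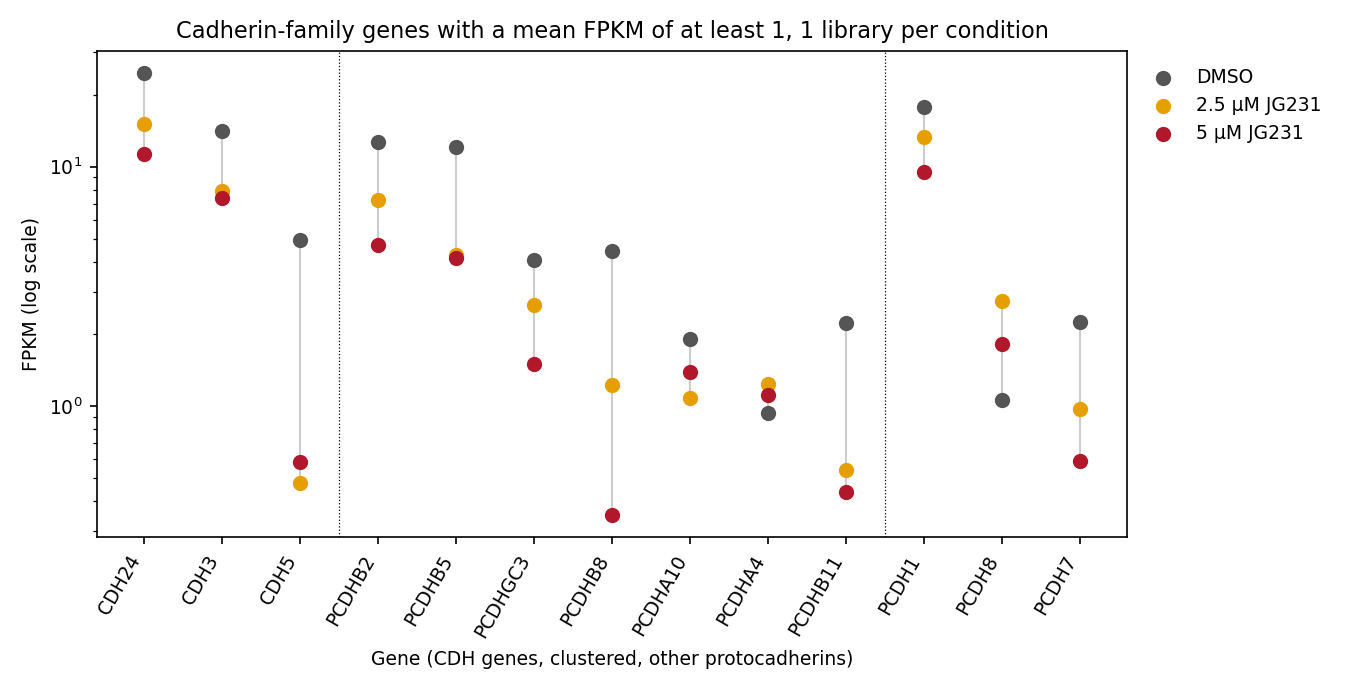
Levels (FPKM, log scale) of the 13 genes with a mean of at least 1 FPKM, ordered by mean within CDH genes, clustered and other protocadherins; each point is 1 library, so there are no error bars. In 11 genes the DMSO point is the highest, while PCDH8 and PCDHA4 have their lowest point in DMSO.

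The CDH genes were carried by CDH24 and CDH3, which together made up 81.3% of their summed FPKM in DMSO, 92.2% at 2.5 µM and 87.7% at 5 µM. Their sum was 47.6 FPKM in DMSO, 24.9 at 2.5 µM and 21.3 at 5 µM. All 3 CDH genes with a mean of at least 1 FPKM were lower by more than 0.25 at both doses (38.3% of all genes with such a mean at 2.5 µM and 40.2% at 5 µM), with a median log2 ratio of -0.83 at 2.5 µM and -1.12 at 5 µM. One of them, CDH5, had that mean through DMSO alone.

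CDH24 (ENSG00000139880, chr14:23047062-23057538, reverse strand), a type II cadherin, was the highest of all 87 genes. Its level was 24.6 FPKM in DMSO, 15.0 at 2.5 µM and 11.3 at 5 µM, from 1485, 1149 and 1019 fragments. The level at 5 µM was 2.18-fold lower than in DMSO (95% counting interval 2.01 to 2.36). As a measure of how far libraries of like genes lay apart, the log2 ratio of the 5 µM to the 2.5 µM library had a robust standard deviation of 0.27 over the 500 genes nearest to CDH24 in mean FPKM, below the size of its log2 ratios to DMSO of -0.71 and -1.12. That spread compares 2 doses rather than replicates.

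CDH3 (ENSG00000062038, chr16:68636189-68727468, forward strand) encodes P-cadherin, the type I cadherin of basal epithelial cells. It had 14.1 FPKM in DMSO, 7.87 at 2.5 µM and 7.40 at 5 µM, so that both JG231 libraries lay close together. At 5 µM it was 1.90-fold lower (1.76 to 2.06), and its log2 ratios of -0.83 and -0.92 exceeded the spread of 0.33 for genes of its level. The 2 excluded type I cadherins differed from each other, with 20.5, 25.2 and 20.2 FPKM for CDH1 (E-cadherin) and 2.01, 0.764 and 0.722 FPKM for CDH2 (N-cadherin) in DMSO, 2.5 µM and 5 µM.

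CDH5 (ENSG00000179776, chr16:66366690-66404784, forward strand), the cadherin of endothelial junctions known as VE-cadherin, stood furthest from DMSO among the CDH genes with a mean of at least 1 FPKM. It had 4.92 FPKM in DMSO, 0.476 at 2.5 µM and 0.581 at 5 µM, from 475, 58 and 84 fragments. It was 10.4-fold lower at 2.5 µM (7.88 to 13.9) and 8.46-fold lower at 5 µM (6.69 to 10.8). Its log2 ratios were -3.12 and -2.88, and -2.00 and -1.90 with a pseudocount of 1. Since it was above 1 FPKM in DMSO only, a lower value was built into its selection, and these ratios are a description. The endothelial and blood markers PECAM1, PTPRC and CD3E were listed at 0 in every library. VWF had 0.215, 0.265 and 0 FPKM in DMSO, 2.5 µM and 5 µM, and CD68 had 0.284, 0 and 0 FPKM. CDH5 was the single gene of that 6-gene list with a mean of at least 1 FPKM. The whole list, CDH5 included, summed to 5.42 FPKM in DMSO, 0.741 at 2.5 µM and 0.581 at 5 µM, and the part of such cells in the level of CDH5 was not tested.

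The remaining CDH genes were low. Of the 13 type II cadherins, 9 were listed at 0 in all libraries, among them CDH6, CDH11 and CDH12, and so were the type I cadherin CDH15 and the GPI-anchored CDH13. Outside the rule by which genes were named, and chosen after their values were seen, CDH23, the cadherin of hair cell tip links, had 1.34, 0.647 and 0.637 FPKM in DMSO, 2.5 µM and 5 µM. CDH26 had 1.69, 0.299 and 0.383 FPKM in the same order, and was 4.402-fold lower at 5 µM (3.20 to 6.13). CDH16, the kidney cadherin, went different ways at the 2 doses, with 28 fragments in DMSO, 3 at 2.5 µM and 80 at 5 µM. CDH4 (R-cadherin) had 25, 65 and 0 fragments.

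The clustered protocadherins had the highest summed level of the 3 classes in DMSO, 58.9 FPKM, with 25.2 at 2.5 µM and 18.6 at 5 µM. Of the 53 genes, 48 were above 0 in DMSO, 38 at 2.5 µM and 23 at 5 µM (21862, 19352 and 17293 of all genes). The 7 with a mean of at least 1 FPKM had a median log2 ratio of -0.80 at 2.5 µM and -1.41 at 5 µM, with 6 lower by more than 0.25 at both doses (38.3% of all genes with such a mean at 2.5 µM and 40.2% at 5 µM). The 3 clusters were not alike in size of difference. As a ratio of depth-scaled fragments at 5 µM to DMSO, PCDHG had 0.209 (0.183 to 0.239), PCDHB 0.309 (0.288 to 0.332) and PCDHA 0.648 (0.595 to 0.707). At 2.5 µM the ratios were 0.408 (0.365 to 0.456), 0.391 (0.365 to 0.419) and 0.745 (0.683 to 0.813). The intervals of PCDHA did not overlap those of PCDHB and PCDHG at either dose, while those of PCDHB and PCDHG overlapped at 2.5 µM. A gene listed at 0 enters these sums without fragments. Above 0 in DMSO and at 5 µM were 17 and 6 PCDHG genes, 16 and 11 PCDHB genes, and 15 and 6 PCDHA genes. The distances between the clusters at 5 µM thus depend in part on genes listed at 0 there, which the intervals do not cover. The genes of a cluster are neighbours in 1 library and are not replicates of the condition.

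**Figure D2:**
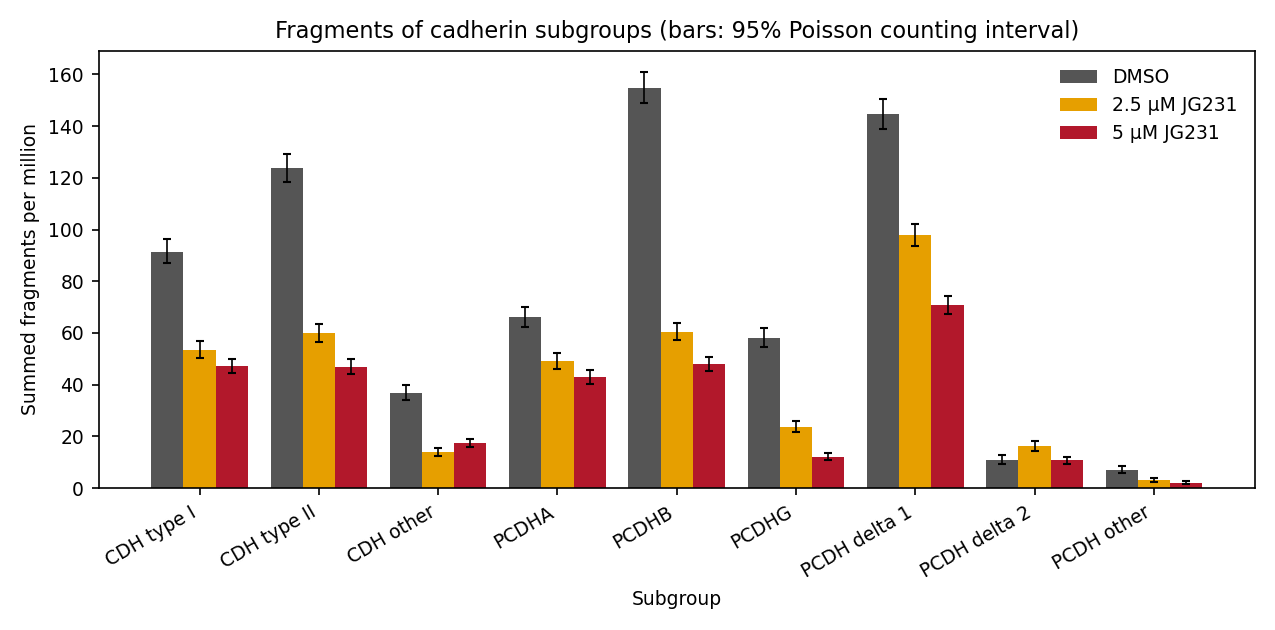
Summed fragments, scaled to library depth, of 9 subgroups of cadherins and protocadherins in the 3 libraries, with 95% exact Poisson intervals that cover counting error only. In 8 subgroups both JG231 bars are below DMSO, and in the delta-2 protocadherins the 2.5 µM bar is above it.

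The PCDHB cluster held the largest levels among the clustered genes, 41.8 FPKM in sum in DMSO, 16.1 at 2.5 µM and 12.9 at 5 µM. All 16 genes were above 0 in DMSO and all 16 were lower at 2.5 µM, while at 5 µM 15 were lower and 1, PCDHB3, was higher, with 0.741, 0.380 and 0.793 FPKM. Over all genes above 0 in any library, 56.9% were lower at 2.5 µM and 57.8% at 5 µM. PCDHB genes share no exons with one another, and the small overlaps of PCDHB1 and PCDHB2 are with family symbols outside the 87 genes. Levels of PCDHB genes thus depend less on how a fragment was assigned than those of the other 2 clusters. Some coding sequence is repeated among them. The share of 150-base windows of the canonical transcript's exon also found in another gene of the family was 17.9% for PCDHB10, 16.2% for PCDHB8, 7.1% for PCDHB2 and 0.5% for PCDHB5.

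PCDHB2 (ENSG00000112852, chr5:141094606-141098703) and PCDHB5 (ENSG00000113209, chr5:141135206-141138615) made up 59.1% of the cluster's FPKM in DMSO, 71.6% at 2.5 µM and 68.6% at 5 µM. PCDHB2 had 12.7, 7.24 and 4.71 FPKM in DMSO, 2.5 µM and 5 µM, from 836, 605 and 465 fragments. It was 1.75-fold lower at 2.5 µM (1.57 to 1.95) and 2.69-fold lower at 5 µM (2.40 to 3.02), so that the higher dose was further from DMSO. PCDHB5 had 12.04, 4.26 and 4.15 FPKM, and the 2 doses did not differ beyond counting error, being 2.82-fold (2.46 to 3.25) and 2.90-fold (2.54 to 3.32) below DMSO. The spread for genes of these levels was 0.34 and 0.33 on the log2 scale, against log2 ratios of -0.80 and -1.41 for PCDHB2 and -1.48 and -1.52 for PCDHB5.

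PCDHB8 (ENSG00000120322, chr5:141177790-141180539) had 4.45, 1.22 and 0.349 FPKM, from 197, 68 and 23 fragments, and was 12.8-fold lower at 5 µM (8.30 to 20.7). PCDHB11 (ENSG00000197479, chr5:141199610-141203779) had 2.22, 0.538 and 0.436 FPKM and was 5.06-fold lower at 5 µM (3.60 to 7.26), with the same limit as CDH5, since it was above 1 FPKM in DMSO only. The log2 ratios of PCDHB11 were -1.86 and -2.12 against a spread of 1.14, and -1.07 and -1.17 with a pseudocount of 1. Among genes under the naming limit, chosen here after their values were seen, PCDHB9 had 117 fragments in DMSO, 5 at 2.5 µM and 1 at 5 µM, and its depth-scaled fragments at 2.5 µM were 29.6-fold lower (12.3 to 93.0). Its neighbour PCDHB10 had 81, 20 and 80 fragments, or 1.53, 0.298 and 1.01 FPKM. PCDHB16 had 1.18, 0.137 and 0.133 FPKM, and was 9.10-fold lower at 5 µM (4.91 to 18.4). Thus all of these PCDHB genes lay below DMSO at both doses, but the 5 µM library lay below, at or above the 2.5 µM library depending on the gene. Without PCDHB2 and PCDHB5, a choice also made after their values were seen, the other 14 genes together had a ratio to DMSO of 0.264 (0.233 to 0.299) at 2.5 µM and 0.233 (0.206 to 0.263) at 5 µM.

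The one PCDHB promoter without the element was that of PCDHB1, which had 7, 3 and 0 fragments in DMSO, 2.5 µM and 5 µM. With 1 such gene the element could not be compared with the level.

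**Figure D3:**
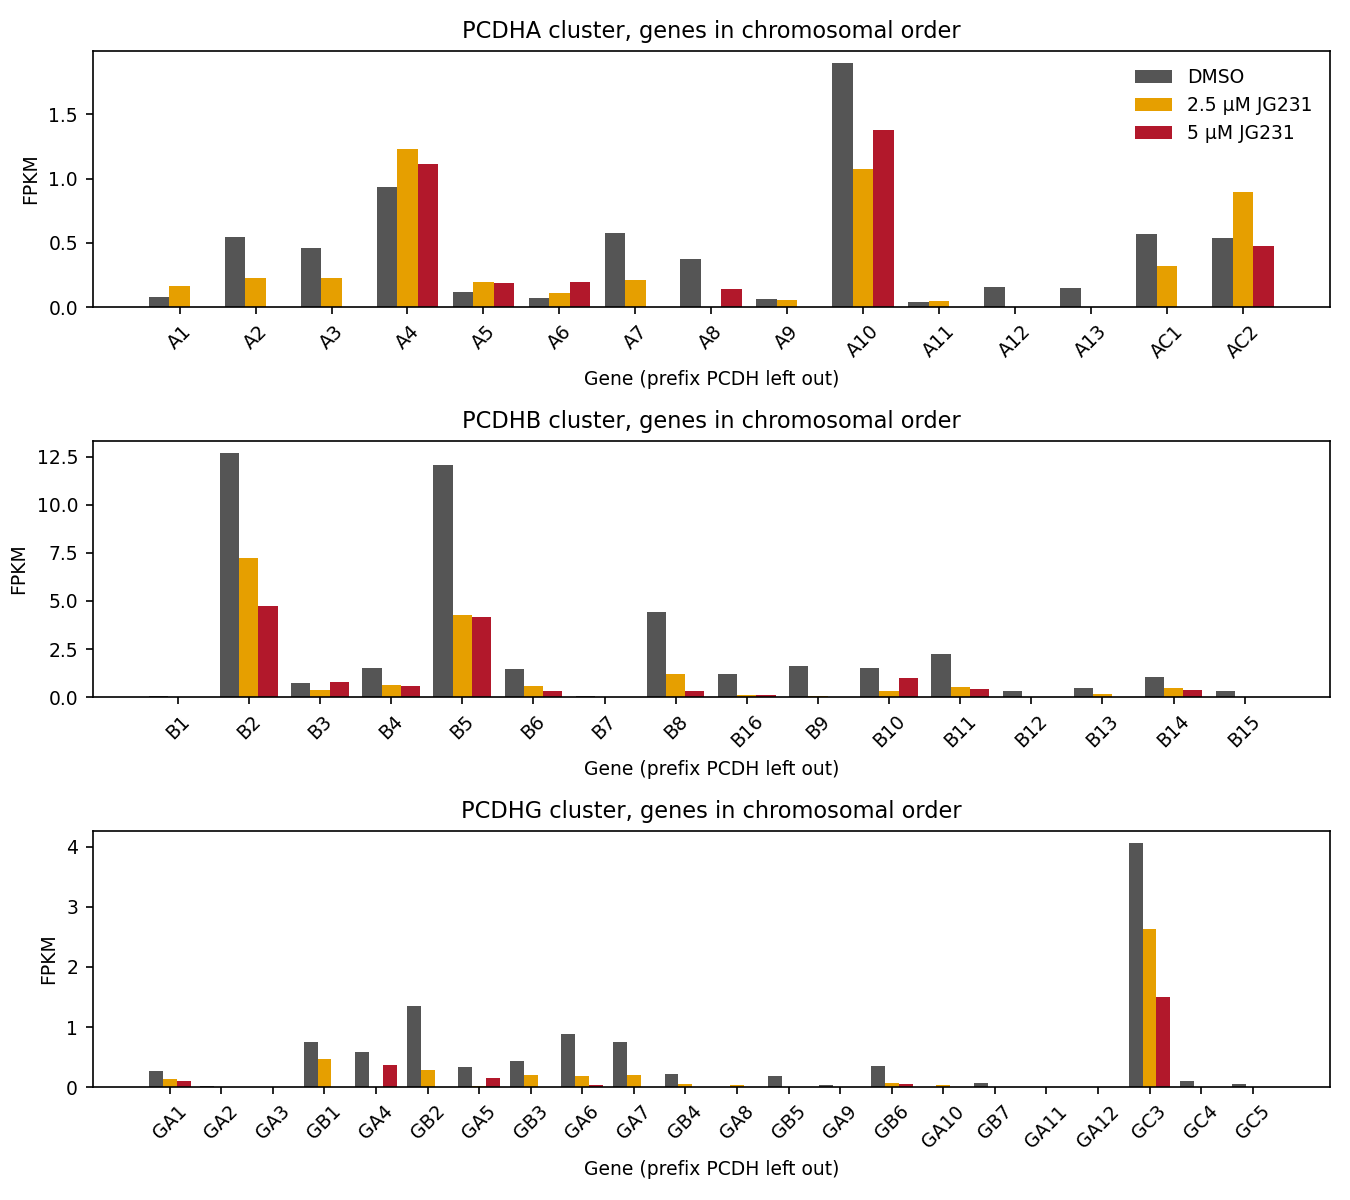
Levels (FPKM, linear axes that start at 0 and differ between panels) of the 53 clustered protocadherins in chromosomal order, with 1 bar per library and no error bars since each condition was 1 library. PCDHB2, PCDHB5 and PCDHGC3 stand out in DMSO and are lower in both JG231 libraries, while PCDHA4 and PCDHA10 hold most of the PCDHA level at 5 µM.

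In the PCDHG cluster the summed level was 10.5 FPKM in DMSO, 4.32 at 2.5 µM and 2.23 at 5 µM. Of its 22 genes 17, 12 and 6 were above 0 (21862, 19352 and 17293 of all genes). PCDHGC3 (ENSG00000240184, chr5:141475947-141512977), one of the C-type genes next to the constant exons, made up 38.7%, 60.8% and 67.4% of that sum. It had 4.06, 2.63 and 1.4996 FPKM, from 355, 291 and 196 fragments, and was 2.71-fold lower at 5 µM (2.27 to 3.24). PCDHGB2 (ENSG00000253910) had 1.34 and 0.288 FPKM in DMSO and 2.5 µM and was listed at 0 at 5 µM, from 104, 28 and 0 fragments. No fold is given against that 0, since few low values were listed in the 5 µM library. All 22 genes share 2177 bases of constant exons, between 44.8% and 45.9% of each canonical transcript, and how a fragment from those exons was assigned is not given in the sources used here. The levels of single PCDHG genes, and a 0 for one of them, are uncertain to that extent, while the sum over the cluster is less affected.

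In the PCDHA cluster the summed level was 6.59 FPKM in DMSO, 4.75 at 2.5 µM and 3.50 at 5 µM. The number of genes above 0 was 15 in DMSO, 12 at 2.5 µM and 6 at 5 µM (21862, 19352 and 17293 of all genes). Its 15 genes share 2869 bases of constant exons, between 48.7% and 53.7% of each canonical transcript, with the same uncertainty. PCDHA10 (ENSG00000250120, chr5:140855883-141012347) had 1.90, 1.08 and 1.38 FPKM, with log2 ratios of -0.76 and -0.43, both smaller than the spread of 0.89 for genes of its level. PCDHA4 (ENSG00000204967, chr5:140807037-141012347) had 0.934, 1.23 and 1.11 FPKM, with log2 ratios of 0.36 and 0.23 and a spread of 1.08. The distance of both genes from DMSO was thus within the spread, except that PCDHA10 at 2.5 µM was beyond it, at -1.04, when mitochondrial and small RNA genes were left out of the scaling.

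These are also the PCDHA genes with the most annotated sequence outside the coding exons. In GENCODE 44 an exon of 12358 bases of PCDHA10 and one of 10557 bases of PCDHA4, both in non-canonical transcripts, run on behind the variable exon, whereas the longest exon of the other 13 PCDHA genes had between 2721 and 6900 bases. Whether the fragments of both genes came from those exons was not tested. The other 13 genes, a choice made after the values were seen, had 383 fragments in DMSO, 322 at 2.5 µM and 150 at 5 µM. As a ratio of depth-scaled fragments to DMSO this was 0.664 (0.571 to 0.772) at 2.5 µM and 0.262 (0.215 to 0.317) at 5 µM. At 5 µM the PCDHA cluster thus lay further below DMSO without PCDHA4 and PCDHA10 than with them. All 13 genes were above 0 in DMSO, 10 at 2.5 µM and 4 at 5 µM. The ratio at 5 µM thus rests in part on values of 0, which do not have the same meaning there as in DMSO. Its interval overlaps those of PCDHB and PCDHG at 5 µM, whereas at 2.5 µM the interval of the 13 genes remained above those of both other clusters. Of these, PCDHA7 had 0.580, 0.212 and 0 FPKM, and PCDHAC2, one of the C-type genes, 0.541, 0.893 and 0.474 FPKM.

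Many clustered genes with few fragments were listed at 0 after JG231. Of 34 cadherin and protocadherin genes with 10 to 100 fragments in DMSO, 28 were clustered. At 2.5 µM 7 of the 34 were listed at 0 (20.6%), where 27.2% of all 6006 genes with such counts were. At 5 µM 17 of the 34 were listed at 0 (50%), where 41.4% of all such genes were. The shares of cadherin genes were near those of all genes and are no result about the family. In 2 genes the value was 0 at 2.5 µM and above 0 in both other libraries. These were PCDHGA4, with 46, 0 and 44 fragments, and PCDHA8, with 33, 0 and 19 fragments.

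The other protocadherins were led by PCDH1 (ENSG00000156453, chr5:141853090-141879246, reverse strand), a delta-1 protocadherin of airway and other epithelia that lies on chromosome 5 beyond the PCDHG cluster. It made up 76.4% of their FPKM in DMSO, 73.8% at 2.5 µM and 75.2% at 5 µM. PCDH1 had 17.7, 13.3 and 9.53 FPKM in DMSO, 2.5 µM and 5 µM, from 1686, 1610 and 1358 fragments. It was 1.33-fold lower at 2.5 µM (1.24 to 1.42) and 1.86-fold lower at 5 µM (1.73 to 1.996), and its log2 ratios were -0.40 and -0.89 against a spread of 0.30.

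PCDH7 (ENSG00000169851, chr4:30720369-31146805, forward strand), another delta-1 protocadherin, had 2.24, 0.970 and 0.590 FPKM and was 3.81-fold lower at 5 µM (3.20 to 4.54). Its log2 ratios were -1.13 and -1.76 against a spread of 1.05, and -0.72 and -1.03, within it, with a pseudocount of 1. After removal of the length trend the ratio at 2.5 µM was -0.87, also within the spread. PCDH7 too was above 1 FPKM in DMSO only, so a lower value was built into its selection. PCDH8 (ENSG00000136099, chr13:52842889-52848641, reverse strand), a delta-2 protocadherin known from activity-dependent synapse remodelling, went the other way. It had 1.06 FPKM in DMSO, 2.74 at 2.5 µM and 1.81 at 5 µM, from 88, 287 and 224 fragments. Its ratio to DMSO was 2.58 (2.02 to 3.31) at 2.5 µM and 1.70 (1.32 to 2.20) at 5 µM. The log2 ratio of 1.29 at 2.5 µM exceeded the spread of 0.71. The ratio of 0.72 at 5 µM was about as large as the spread, and it was within it at 0.45 with a pseudocount of 1 and at 0.36 when mitochondrial and small RNA genes were left out of the scaling. The level was higher at the lower dose.

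The rest of the class was low. Chosen after its values were seen, PCDH12, a protocadherin of endothelial cells, had 1.06, 0.453 and 0.347 FPKM. PCDH9, a delta-1 gene, had 0.352, 0.201 and 0.219 FPKM, and PCDH19, the delta-2 gene known from X-linked epilepsy, had 24, 0 and 0 fragments. PCDH10, another delta-2 gene, was listed at 0 throughout. Over the 5 delta-2 genes the ratio of depth-scaled fragments to DMSO was 1.489 (1.236 to 1.799) at 2.5 µM and 0.982 (0.807 to 1.197) at 5 µM, and PCDH8 alone gave 287 of the 330 fragments at 2.5 µM. Over the 5 delta-1 genes it was 0.676 (0.636 to 0.718) and 0.490 (0.460 to 0.521).

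The distance from DMSO depended on transcript length across all protein-coding genes, in that long transcripts lay lower after JG231 than short ones, and the 87 genes are long, with a median canonical transcript of 4794 bases. After removal of this trend the medians over genes with a mean of at least 1 FPKM were -0.77 at 2.5 µM and -1.12 at 5 µM for CDH genes, -0.77 and -1.31 for clustered and -0.32 and -0.70 for other protocadherins. They rest on 3 CDH genes, 7 clustered and 3 other protocadherins, and the median of the last class is the value of PCDH1. The largest shift was that of other protocadherins at 5 µM, from -0.89 to -0.70.

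**Figure D4:**
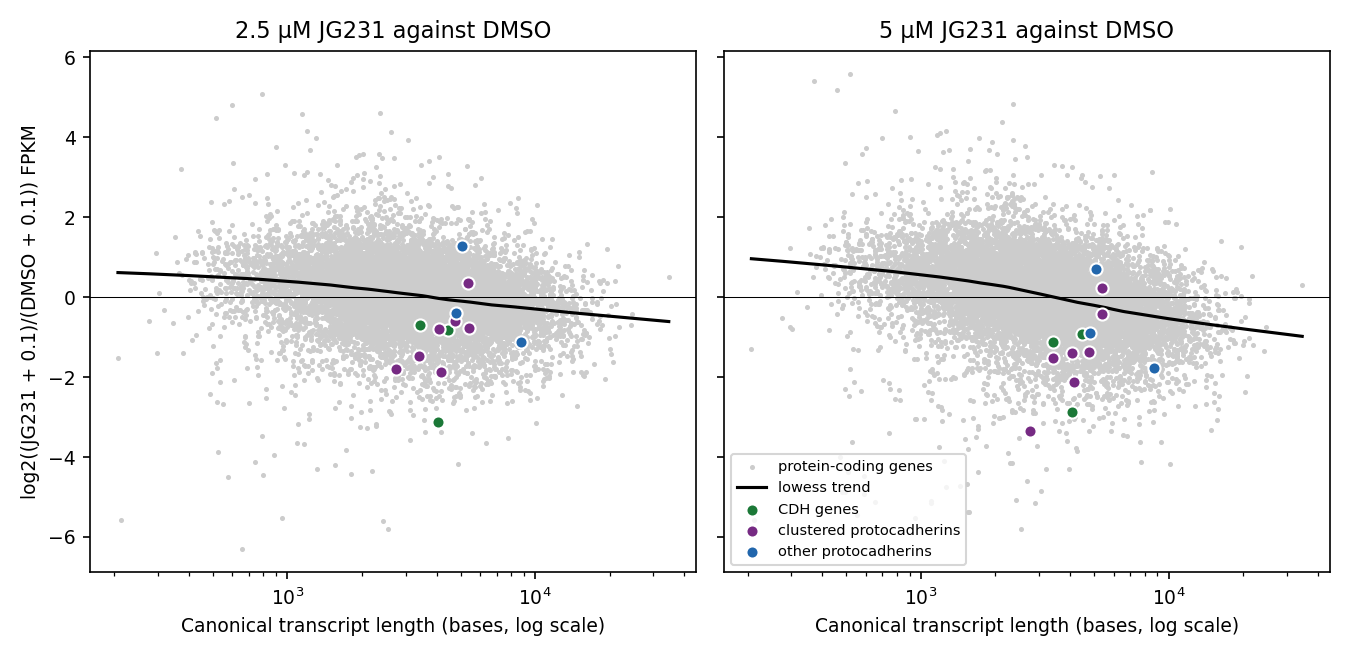
The log2 ratio of JG231 to DMSO (FPKM with 0.1 added) against canonical transcript length (bases, log scale) for protein-coding genes with a mean of at least 1 FPKM (grey), the lowess trend (line) and the 13 cadherin and protocadherin genes (colours), 1 panel per dose. In each panel 11 of the 13 coloured points lie below 0, and PCDH8 and PCDHA4 lie above the trend.

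The 2 doses were also set against each other. Of 11 genes above 1 FPKM in either JG231 library, 6 were lower at 5 µM than at 2.5 µM by more than 0.25 and 2 were higher, where 30.1% of 14197 genes were lower and 26.8% higher. The 6 lower genes were CDH24, PCDHB2, PCDHB8, PCDHGC3, PCDH1 and PCDH8. The 2 higher genes were PCDHB10 and PCDHA10. PCDHB8 had the largest difference of the lower genes, with a log2 ratio between the doses of -1.55 against a spread of 0.76. Of the 2 JG231 libraries, PCDHB8 was above 1 FPKM at 2.5 µM only (1.22 against 0.349) and PCDHB10 at 5 µM only (1.01 against 0.298). The side on which each of these 2 genes fell was thus built into its selection, and their differences are a description. Among the 70 genes detected in any library, 44 were lower at 5 µM than at 2.5 µM, 13 were higher and 13 equal, where 47.2% of all genes were lower and 38.3% higher. Of 29 genes with 10 to 100 fragments at 2.5 µM, 12 were listed at 0 at 5 µM, where 31.5% of all 5005 such genes were.

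Genes that act with cadherins were read from lists. The catenins and other partners of the cadherin tail went both ways, with a median log2 ratio of 0.13 at 2.5 µM and -0.02 at 5 µM over 10 of 11 genes with a mean of at least 1 FPKM. At 2.5 µM 3 of the 10 were lower by more than 0.25, 3 higher and 4 within it, where 38.3% of all genes with such a mean were lower and 38.4% higher. At 5 µM 2 were lower, 3 higher and 5 within it, where 40.2% of all genes with such a mean were lower and 38.6% higher, the shares against which the lists below are also read. CTNNB1 (beta-catenin, which joins the cadherin tail to alpha-catenin) had 34.4, 33.9 and 32.5 FPKM in DMSO, 2.5 µM and 5 µM. CTNND1 (p120-catenin, which holds cadherins at the membrane) had 2.73, 1.96 and 1.30 FPKM, with a log2 ratio of -1.02 at 5 µM against a spread of 0.76, and of -0.65, within it, after removal of the length trend. JUP (plakoglobin, the catenin of desmosomes) had 12.3, 14.8 and 16.6 FPKM, with a log2 ratio of 0.44 at 5 µM against a spread of 0.28. ARVCF had 6.10, 4.73 and 4.84 FPKM, with a log2 ratio of -0.33 at 5 µM, within its spread of 0.44.

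Proteases that process cadherins had a median log2 ratio of -0.05 at 2.5 µM and 0.09 at 5 µM over 8 of 11 genes, with 3 lower and 3 higher at 5 µM (40.2% and 38.6% of all genes). ADAM10, which sheds cadherin ectodomains, had 9.75, 6.22 and 5.49 FPKM, with a log2 ratio of -0.82 at 5 µM against a spread of 0.35. Its transcript is long, and after removal of the length trend the ratio was -0.24, within the spread. FURIN, which cuts the propeptide, had 17.6, 11.6 and 11.6 FPKM. PSEN2, a catalytic subunit of gamma-secretase, had 3.73, 5.25 and 5.92 FPKM, with log2 ratios of 0.48 and 0.65 against a spread of 0.46. After removal of the length trend they were 0.30 and 0.40, within the spread.

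The genes for CTCF, cohesin and silencers of the clusters had a median log2 ratio of 0.15 at 2.5 µM and -0.04 at 5 µM over 16 of 16 genes, with 6 lower and 5 higher at 5 µM (40.2% and 38.6% of all genes). CTCF had 5.19, 7.75 and 6.76 FPKM, with log2 ratios of 0.57 and 0.38 against a spread of 0.35. SMC1A, a core subunit of cohesin, had 23.3, 16.7 and 12.9 FPKM, with a log2 ratio of -0.85 at 5 µM against a spread of 0.29, and of -0.33 after removal of the length trend. STAG1, which takes the same place in cohesin as STAG2, had 3.94, 5.15 and 7.08 FPKM, with a log2 ratio of 0.83 against 0.43. DNMT3B had 2.93, 2.32 and 1.67 FPKM, with a log2 ratio of -0.77 at 5 µM against a spread of 0.67. After removal of the length trend it was -0.64, within the spread.

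The WAVE complex, an actin regulator that several protocadherins bind, had a median log2 ratio of -0.20 at 2.5 µM and -0.27 at 5 µM over 8 of 9 genes, with 4 lower and 2 higher at 5 µM (40.2% and 38.6% of all genes). After removal of the length trend the median at 5 µM was 0.09 for this list, 0.13 for the catenins, -0.09 for the proteases and 0.23 for the CTCF and cohesin genes, of which 2 were then lower and 8 higher. The sign of the median at 5 µM thus depended on the trend in these 4 lists. ABI2, a subunit of the complex, had 5.04, 2.65 and 1.999 FPKM, with a log2 ratio of -1.29 at 5 µM against a spread of 0.52. WASF1 had 17.1, 10.5 and 11.4 FPKM, with log2 ratios of -0.70 and -0.59 against a spread of 0.29. CYFIP2 had 3.54, 2.63 and 2.14 FPKM, with a log2 ratio of -0.70 at 5 µM against a spread of 0.55. After removal of the length trend that of CYFIP2 was -0.35, within the spread.

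**Figure D5:**
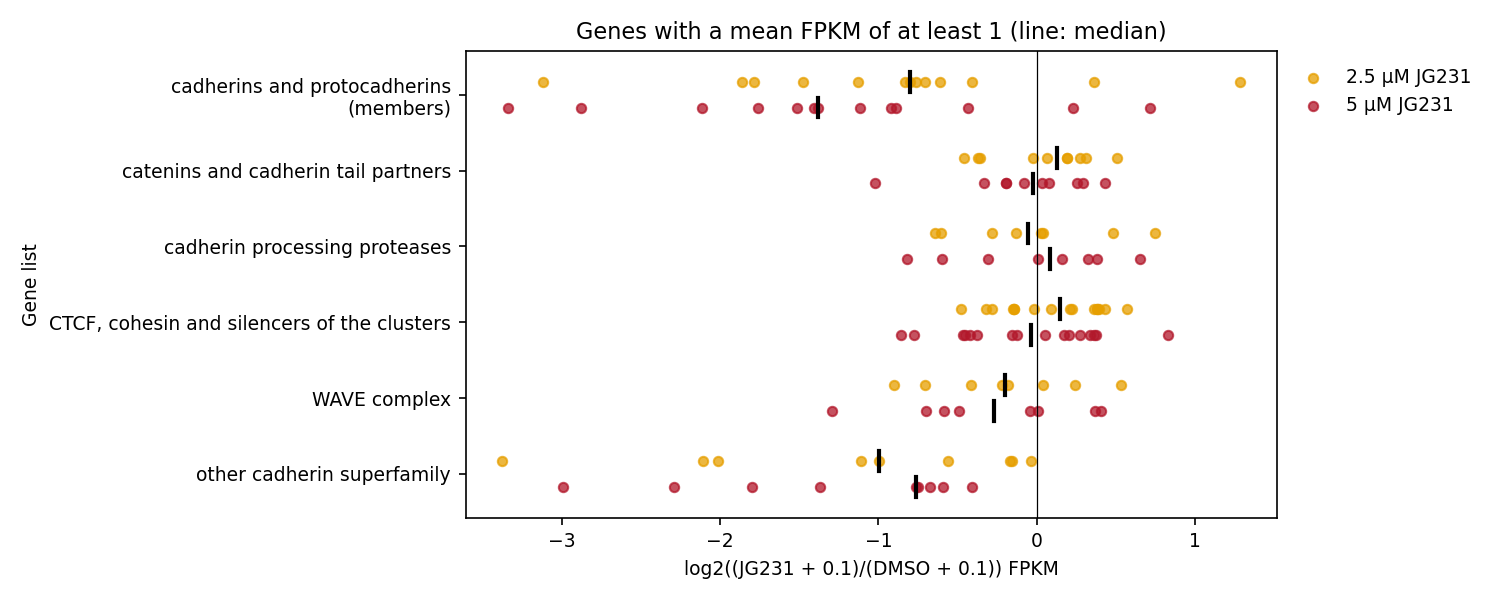
Log2 ratios of JG231 to DMSO (FPKM with 0.1 added) of single genes with a mean of at least 1 FPKM in the cadherin and protocadherin set and in 5 lists of related genes, with 1 point per gene and dose and a line at each median. The medians of cadherins and protocadherins are -0.80 and -1.38, those of the other cadherin superfamily -0.997 and -0.76, and those of the remaining lists lie between -0.27 and 0.15.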

How the data were processed

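RNA-seq of 3 libraries (DMSO, 2.5 µM and 5 µM JG231, 24 h) was used as 1 table of gene FPKM. The deposited FPKM values were made by the authors with HISAT and StringTie in what the methods call a Top Hat-Cufflinks pipeline; the submitters' processing notes name HISAT2, featureCounts and GRCh38. Versions, annotation release and the use of strand are not given in the sources used here. Groups came from sample titles and treatments.

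Ratios were log2((JG231 + 0.1)/(DMSO + 0.1)) with part of the filter of the methods. Fragments were recovered as FPKM times GENCODE 44 exon length, in steps of 62.2, 49.1 and 41.6 FPKM × bases for DMSO, 2.5 µM and 5 µM. Of single-transcript genes under 50 fragments, 88.2%, 85.8% and 84.2% came out whole within 0.05. Of 33, 38 and 17 cadherin genes under 50 fragments, 19, 24 and 9 came out whole, so their counts are approximate. Ratio intervals are Clopper-Pearson at 95%. The length trend was a lowess fit (fraction 0.3). Scripts were tested on simulated data. Tables were handled in Python 3.11.15 with pandas 2.3.3, the trend was fitted with statsmodels 0.14.6, intervals came from scipy 1.17.1 with numpy 2.4.6, and plots from matplotlib 3.10.9.

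Genes were named at a mean FPKM of at least 1 (at most 12 per class), or at 0 in 1 library and above 1 FPKM in another. From the lists of related genes up to 3 per list were named, those with the largest difference at 5 µM and the same sign at both doses, plus CTNNB1 and CTCF. The members and lists were chosen with earlier results of these data known. PCDH11Y was counted among the genes and its level is not printed.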

Additional observations from a re-analysis of the deposited data

How the results depend on the processing

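Medians of the 3 classes kept their sign under every alternative run. They moved by over 0.25 on the log2 scale when mitochondrial and small RNA genes were left out of the scaling, which lowered the median coding gene by 0.29 at 2.5 µM and 0.37 at 5 µM. They then were -1.12 and -1.49 for CDH genes, -1.09 and -1.78 for clustered and -0.69 and -1.26 for other protocadherins. With a mean of at least 5 FPKM the clustered median at 2.5 µM was -1.14. The number of lower genes at 2.5 µM was 57 without a filter, 5 with a mean of at least 5 FPKM and 13 beyond a log2 ratio of 1, and at 5 µM it was 58 without a filter and 5 with that mean. Higher genes at 2.5 µM numbered 1 with a pseudocount of 1, 10 without a filter, 0 with a mean of at least 5, 1 after rescaling and 1 beyond a log2 ratio of 1. At 5 µM they numbered 2 with a pseudocount of 0.01, 5 without a filter, 0 with a mean of at least 5, 2 after removal of the length trend and 0 beyond a log2 ratio of 1. Of the 28 ratios of named genes per alternative, 4 moved by more than the spread for genes of their level with a pseudocount of 1, 1 with a pseudocount of 0.01 and 6 after rescaling, and 1 changed sign, that of PCDHA4 at 5 µM, which was -0.12 after rescaling. No paired analysis was possible because each condition was 1 library. Depth limits single genes of the PCDHA and PCDHG clusters, most of which had fewer than 100 fragments.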

Other observations

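Members of the cadherin superfamily with other names were mostly lower too. Over 9 of 24 such genes with a mean of at least 1 FPKM the median log2 ratio was -0.997 at 2.5 µM and -0.76 at 5 µM. At 2.5 µM 6 were lower by more than 0.25 and 0 higher, and at 5 µM 9 were lower and 0 higher, where 38.3% and 40.2% of all such genes were lower. These genes are long, and after removal of the length trend 6 were lower at each dose, 1 was higher at 2.5 µM and 0 at 5 µM, with medians of -0.86 and -0.58. CDHR2, CELSR2 and DCHS1 were above 1 FPKM in DMSO only and passed the limit on the mean through that library, so that a lower value was built into their selection. CDHR2, a cadherin of the brush border, had 3.42, 0.239 and 0.342 FPKM in DMSO, 2.5 µM and 5 µM, with log2 ratios of -3.38 and -2.99. CELSR2, a cadherin of planar polarity, had 3.93, 0.898 and 0.724 FPKM. DCHS1, which pairs with FAT4, had 2.48, 0.497 and 0.641 FPKM. These are single libraries, and no cause was tested.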
